A study of Mus musculus with 6 samples.

Results

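The genes of MHC class II antigen presentation were followed in mouse thoracic aorta on 6 Illumina bead arrays. The set holds 8 genes, H2-Aa, H2-Ab1, H2-Eb1, H2-DMa, H2-DMb1, H2-DMb2, Cd74 and Ciita, for which every probe carrying one of these symbols in the array's annotation was taken. They had 15 of the 45281 probes, of which 13 were kept because the deposited detection p was under 0.01 on at least 2 arrays. The whole array had 16749 such probes, for 9837 named genes, and each of the 8 class II genes had at least 1.

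MHC class II molecules are heterodimers of an alpha and a beta chain that carry peptides of endocytosed proteins to the cell surface, where CD4 T cells read them. The invariant chain Cd74 guides newly made dimers to endosomes and blocks their groove, and H2-DM then helps to exchange the remaining invariant chain fragment for peptide. Ciita, the class II transactivator, binds no DNA itself and is recruited by factors bound at the X and Y boxes of class II promoters. Dendritic cells, macrophages and B cells are the usual class II positive cells, and interferon gamma can induce the genes in other cells, vascular cells among them.

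TG mice carried TG SM-CaMKIIN, a peptide inhibitor of the calcium/calmodulin-dependent kinase CaMKII made in smooth muscle only, and WT mice were littermates without it, both on the C57 Bl/6 background. No source used here names the promoter that drives the transgene. Osmotic minipumps were implanted at 12 weeks of age and ran for 14 days, with angiotensin II (Ang-II, a vasoconstrictor hormone) at 1.25 ug/kg/min in 0.9% saline or with 0.9% saline alone. The groups were TG with Ang-II (2 arrays), WT with Ang-II (2 arrays), TG with saline (1 array) and WT with saline (1 array). Each group had 5 mice, and RNA was pooled by group. The titles call the Ang-II arrays biological replicates without saying which mice each array holds, so a p-value here reflects array-to-array spread that may be technical. The fit takes the single saline arrays to be as variable as the Ang-II arrays, and precision is bounded by having 6 arrays.

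Of 45281 probes, between 15393 and 16075 were detected on each array, and the median raw signal lay between 110.0 and 130.5. Across probes, which are not independent replicates, r was 0.990 between the TG Ang-II arrays and 0.991 between the WT Ang-II arrays. All 9 smooth muscle markers were measured, with summed normalized signals of 90894 and 93936 in TG Ang-II, 83029 and 82464 in WT Ang-II, 96471 in TG saline and 102307 in WT saline. Heart muscle markers (7 measured) stood apart in the TG Ang-II arrays, at 15200.1 and 14536, against 1462 and 1490.4 in WT Ang-II, 1778 in TG saline and 2845 in WT saline. All the TG Ang-II values below come from pools with this heart signal, and its part in them was not tested.

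Promoter sequences are shown because the class II genes are known for a shared promoter module, the X and Y boxes, and because most of them moved together here. RefSeq's table of 250 bases upstream of each start (GRCm38.p6) held 5 of the 8 genes. Bases 150 to 1 upstream of the start are printed 5′ to 3′ for H2-Eb1 (chr17:34305717-34305866, plus strand), H2-DMb1 (chr17:34153041-34153190, plus strand), H2-DMb2 (chr17:34145099-34145248, plus strand) and H2-Aa (chr17:34287824-34287973, minus strand). Capitals mark the core of the X box (AACNGATG), the Y box (GATTGG, or its reverse complement) and the cyclic AMP response element (TGACGTCA). These letters were searched on both strands and were chosen after the promoters had been seen.
H2-Eb1: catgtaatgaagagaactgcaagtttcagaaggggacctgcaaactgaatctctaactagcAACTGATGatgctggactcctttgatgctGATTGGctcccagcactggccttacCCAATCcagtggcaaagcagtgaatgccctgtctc
H2-DMb1: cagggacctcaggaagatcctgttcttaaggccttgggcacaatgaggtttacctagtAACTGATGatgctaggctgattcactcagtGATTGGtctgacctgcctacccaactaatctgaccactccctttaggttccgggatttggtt
H2-DMb2: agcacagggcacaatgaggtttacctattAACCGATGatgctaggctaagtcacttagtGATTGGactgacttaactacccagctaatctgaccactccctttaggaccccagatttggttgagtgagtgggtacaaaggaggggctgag
H2-Aa: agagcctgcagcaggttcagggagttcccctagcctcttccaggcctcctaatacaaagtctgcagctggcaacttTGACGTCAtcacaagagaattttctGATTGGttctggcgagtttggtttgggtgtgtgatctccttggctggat

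In H2-DMb1 and H2-DMb2 22 bases lay between the X box core and the Y box after it, and in H2-Eb1 21 bases. H2-Eb1 held a second Y box on the other strand. H2-Aa held the cyclic AMP response element 74 to 67 bases upstream of its start and a Y box 49 to 44 bases upstream, with no match to the X box letters. The promoter of H2-DMa, which has 2 start sites in the table, held a Y box upstream of 1 of these starts and neither of the other motifs. Of all 32851 promoters in the table, 1.98% held the X box core, 14.6% the Y box and 1.55% the cyclic AMP response element. Only 10 promoters (0.0304%) held an X box core with a Y box 10 to 40 bases after it, and 4 of these belong to class II genes (H2-DMb1, H2-DMb2, H2-Eb1 and H2-Eb2). BC051142 and H2-M10.4, also on chromosome 17, were among the rest. Because the letters were chosen with the class II promoters in view, these shares are no test of the module. Of the 17 promoters of the listed MHC class I presentation genes, which do not include H2-M10.4, 0 held the X box core and 8 the Y box. A match is a description of the letters and does not show that a factor binds.

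Among the classical chains, which form the dimers at the cell surface, H2-Aa, the alpha chain of I-A, had normalized log2 signals of 11.34 and 11.80 in TG Ang-II, 10.68 and 11.34 in WT Ang-II, 9.98 in TG saline and 9.61 in WT saline. The Ang-II arrays lay above their saline array in both genotypes, and the arrays within a group spread widely. The difference, Ang-II minus saline, was 1.59 ± 0.33 in TG (SE; 3.0-fold, adjusted p = 0.0457) and 1.41 ± 0.33 in WT (2.65-fold, adjusted p = 0.0552), so that H2-Aa rose in TG and just missed the threshold of 0.05 in WT. Averaged over both genotypes it rose by 1.5 ± 0.23 (adjusted p = 0.0120). Differences are on the log2 scale of background-corrected signals throughout, tested in limma with Benjamini-Hochberg adjustment over 16749 probes.

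H2-Ab1, the beta chain of I-A, had 3 probes. The brightest read 11.99 and 12.18 in TG Ang-II, 11.46 and 11.45 in WT Ang-II, 10.53 in TG saline and 9.41 in WT saline. By group mean this probe was highest in TG Ang-II, then WT Ang-II, TG saline and WT saline. H2-Ab1 rose by 1.56 ± 0.16 in TG (2.94-fold, adjusted p = 0.00926) and by 2.05 ± 0.16 in WT (4.13-fold, adjusted p = 0.00433). The other 2 probes rose as well, and over the 3 probes the response ranged from 1.09 to 1.56 in TG and from 1.63 to 2.05 in WT. H2-Eb1, the beta chain of I-E, read 11.30 and 11.22 in TG Ang-II, 11.13 and 10.90 in WT Ang-II, 9.89 in TG saline and 9.32 in WT saline. It rose by 1.37 ± 0.17 in TG (2.58-fold, adjusted p = 0.0123) and by 1.69 ± 0.17 in WT (3.24-fold, adjusted p = 0.00687). H2-Ea, the partner chain of I-E, which RefSeq lists as a transcribed pseudogene, was not detected on any array (lowest detection p 0.231). Mice of the C57BL/6 strain are known to lack I-E at the cell surface for want of this chain.

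Of the non-classical H2-DM chains, H2-DMa, the alpha chain, read 8.71 and 8.41 in TG Ang-II, 8.31 and 8.04 in WT Ang-II, 7.49 in TG saline and 7.15 in WT saline. Its brighter probe rose by 1.07 ± 0.21 in TG (2.11-fold, adjusted p = 0.0397) and by 1.02 ± 0.21 in WT (2.03-fold, adjusted p = 0.0407). The other H2-DMa probe differed by 0.60 ± 0.23 in TG (adjusted p = 0.186), which did not pass, and rose by 1.22 ± 0.23 in WT (adjusted p = 0.0351). The probes of this gene thus gave different calls in TG. H2-DMb1, the beta chain, read 8.81 and 9.0 in TG Ang-II, 8.68 and 8.91 in WT Ang-II, 8.34 in TG saline and 7.43 in WT saline. H2-DMb2, its near-identical neighbour, read 7.72 and 7.73 in TG Ang-II, 7.80 and 7.72 in WT Ang-II, 7.13 in TG saline and 6.62 in WT saline. In both genes the Ang-II arrays of TG and WT lay close together while the saline arrays were apart. In WT, H2-DMb1 rose by 1.36 ± 0.18 (2.57-fold, adjusted p = 0.0130) and H2-DMb2 by 1.14 ± 0.15 (2.21-fold, adjusted p = 0.0127). In TG the differences of 0.57 ± 0.18 (adjusted p = 0.130) and 0.60 ± 0.15 (adjusted p = 0.0770), for H2-DMb1 and H2-DMb2 in that order, did not pass. The sequences of the probes were not used here, so signal of these 2 genes cannot be told apart where a probe matches both. A second probe of H2-DMb2 was at background on all 6 arrays (log2 4.56 to 5.11).

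Cd74 had 3 probes. The brightest read 11.97 and 11.98 in TG Ang-II, 12.10 and 11.98 in WT Ang-II, 10.86 in TG saline and 10.31 in WT saline. The Ang-II arrays of both genotypes were nearly level on it. Cd74 rose by 1.11 ± 0.15 in TG (2.17-fold, adjusted p = 0.0163) and by 1.73 ± 0.15 in WT (3.31-fold, adjusted p = 0.00516). All 3 probes rose in WT (1.63 to 1.73), and 2 of 3 rose in TG (0.93 to 1.28 over all 3), the dimmest differing by 0.93 ± 0.27 (adjusted p = 0.109).

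Ciita, the transactivator, was detected on 3 arrays, replicate 1 of TG Ang-II and both of WT Ang-II. Its kept probe read 5.92 and 5.00 in TG Ang-II, 6.33 and 6.25 in WT Ang-II, 5.23 in TG saline and 4.72 in WT saline. In WT the Ang-II arrays lay above the saline array, which was not well above background, and in TG the saline value lay between the Ang-II values. In WT the mean level under Ang-II was at least 1.58-fold the saline level, with a fitted difference of 1.57 ± 0.37 (adjusted p = 0.0552) that did not pass. Such bounds, here and below, come from group means and the detection floor and take no account of spread between arrays. In TG the fitted difference was 0.23 ± 0.37 (adjusted p = 0.742), and it has no lower bound above 1-fold because the saline array and replicate 2 of TG Ang-II were at background. A second Ciita probe was at background on all 6 arrays (4.47 to 5.28).

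**Figure D1:**
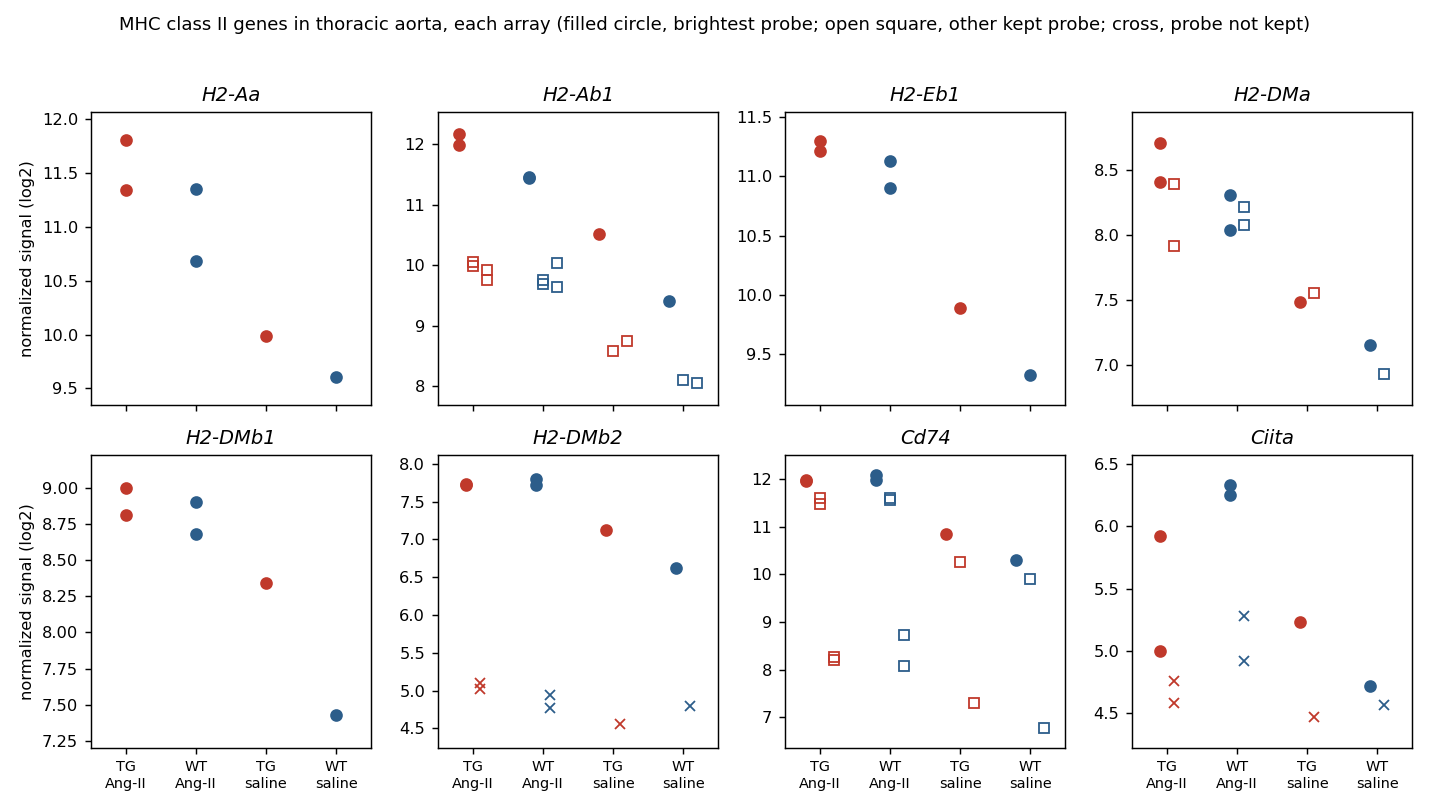
Normalized log2 signal (y axis, own range per panel) of each probe of the 8 class II genes on each array, by group (x axis; TG red, WT blue). Filled circles are the brightest probe, open squares other kept probes, crosses probes not kept. Except for Ciita, the Ang-II arrays of the brightest probe lie above both saline arrays, as in H2-Ab1, where the brightest probe reads 11.99 and 12.18 in TG Ang-II and 11.46 and 11.45 in WT Ang-II, against 10.53 in TG saline and 9.41 in WT saline.

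Counted by the brightest probe, 5 of the 8 genes rose in TG, where 5.23% of all 9837 genes rose, and 6 of 8 rose in WT, where 6.09% did. In TG these were H2-Aa, H2-Ab1, H2-Eb1, H2-DMa and Cd74. In WT they were H2-Ab1, H2-Eb1, H2-DMa, H2-DMb1, H2-DMb2 and Cd74. None fell in either genotype (1.56% of all genes fell in TG and 2.63% in WT). Averaged over both genotypes, 7 of 8 rose, all but Ciita (0.90 ± 0.26, adjusted p = 0.0634). Of all genes, 10.4% rose and 7.01% fell in this average. The 8 genes were chosen with earlier results of these data known. Their counts, here and below, are thus no test of the set against all genes. The median response of the 8 genes was 1.09 in TG and 1.49 in WT, against medians of -0.06 and -0.05 for all genes in the same order of genotypes. With Ciita at its lower bound the WT median was 1.38. Without either one of the WT Ang-II arrays, fewer of the 8 passed in both genotypes. Without either one of the TG Ang-II arrays, fewer passed in TG and more in WT. The share of all genes that passed in these refits was not counted. Over 13 alternatives, these refits among them, the H2-Aa response ran from 1.35 to 1.82 in TG and from 1.08 to 1.74 in WT. That of H2-DMa ran from 0.79 to 1.22 in TG and from 0.70 to 1.16 in WT.

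Both TG Ang-II arrays lay above the TG saline array for 7 of the 8 genes (33.5% of all genes), and both WT Ang-II arrays above the WT saline array for 8 of 8 (36.8% of all genes). Ciita counts among the 8 in WT, though it was kept only through Ang-II arrays and its saline value was at background. All 4 Ang-II arrays lay above both saline arrays for 7 of 8, as for 15.4% of all genes. Of the 13 kept class II probes, 8 rose in TG, 11 in WT and 12 in the average, where 5.84%, 6.35% and 11.6% of all 16749 kept probes rose, in the same order. In these arrays of whole tissue, more cells of a type and more RNA per cell cannot be told apart.

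**Figure D2:**
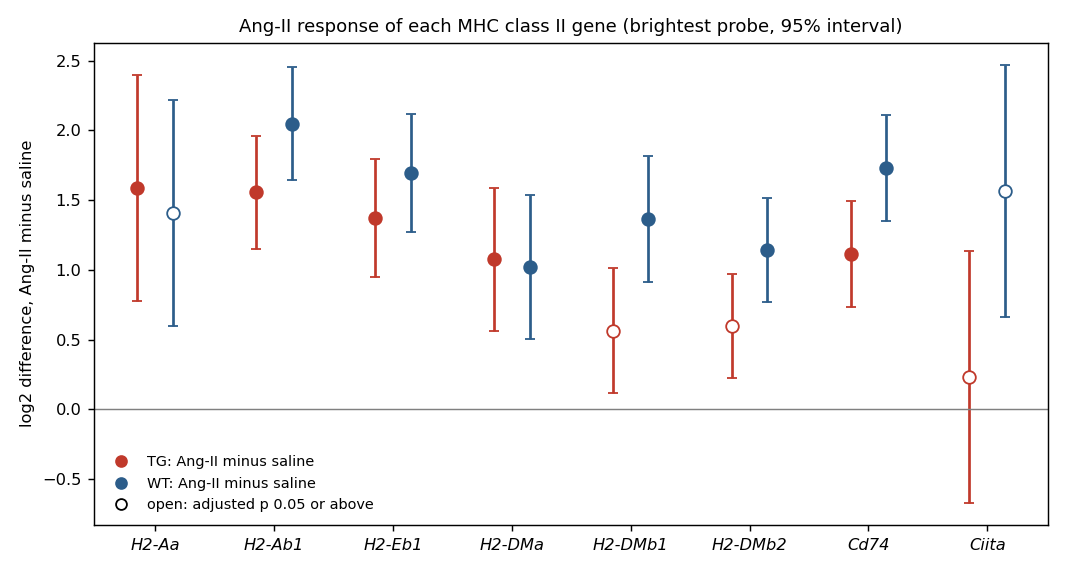
Ang-II minus saline difference in log2 signal (y axis) of each class II gene by its brightest probe, TG (red) left of WT (blue), with 95% intervals from the limma fit. Filled points passed at an adjusted p under 0.05: 5 in TG and 6 in WT. The Ciita intervals are the widest, and its TG interval spans 0.

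The difference between the genotypes' responses was tested as an interaction, and 0 of the 8 genes passed in limma (1.26% of all genes passed). At an unadjusted p under 0.05 there were 4 of 8, and 13.5% of all genes. The response was smaller in TG than in WT for 6 of 8 genes, as for 51.3% of all genes, with a median of -0.52 for the class II genes. The values were -1.34 ± 0.52 for Ciita (adjusted p = 0.338), -0.80 ± 0.26 for H2-DMb1 (adjusted p = 0.258), -0.61 ± 0.22 for Cd74 (adjusted p = 0.298) and -0.55 ± 0.21 for H2-DMb2 (adjusted p = 0.341). The Ciita value rests on 2 saline arrays at background and is no measured size. H2-Ab1 differed by -0.49 ± 0.23 and H2-Eb1 by -0.32 ± 0.24. H2-DMa by its brighter probe (0.05 ± 0.29) and H2-Aa (0.18 ± 0.46) were close to level. The 95% interval for H2-Aa ran from -0.96 to 1.33. By the other H2-DMa probe the difference was -0.61 ± 0.33 (adjusted p = 0.492). A response that passed in one genotype and not in the other, as for H2-DMb1 and H2-DMb2, is thus not shown to differ between them. Under a trended robust prior Cd74 passed (adjusted p = 0.0447); over all alternatives its adjusted p ran from 0.0447 to 0.503.

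Under Ang-II, TG against WT, 0 of 8 genes passed in either direction in limma, where 3.02% of all genes were higher and 2.33% lower in TG. At an unadjusted p under 0.05 there were 2 of 8, and 21.3% of all genes. H2-Ab1 came closest, with a TG minus WT difference of 0.63 ± 0.13 by its brightest probe (adjusted p = 0.0586). Its other probes differed by 0.29 ± 0.12 and 0.00 ± 0.18. H2-Ab1 passed in 4 of 15 alternatives (adjusted p from 0.000464 to 0.240), among them an offset of 50 (0.0156) and no background correction (0.00152). H2-Aa differed by 0.56 ± 0.27, H2-DMa by 0.38 ± 0.17 and H2-Eb1 by 0.24 ± 0.14, and H2-DMb1, H2-DMb2 and Cd74 by between -0.06 and 0.11. Ciita was lower in TG by fit, at -0.83 ± 0.30 (adjusted p = 0.187), with replicate 2 of TG Ang-II not above background, so that the size of this difference is uncertain.

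Under saline, with 1 array each, 0 of 8 genes passed in limma (0.163% of all genes passed). At an unadjusted p under 0.05 there were 5 of 8, and 13.7% of all genes. All 8 read higher in the TG than in the WT saline array, as 51.9% of all genes did, with a median difference of 0.53 beside 0.01 for all genes. H2-Ab1 differed by 1.12 ± 0.19 (adjusted p = 0.103) and H2-DMb1 by 0.91 ± 0.21 (adjusted p = 0.160). The other 6 differed by 0.33 to 0.57, and Ciita was not well above background on either saline array. H2-Ab1 passed with no background correction, an offset of 50, detection on all 6 arrays or a trended robust prior (adjusted p from 0.000196 to 0.0480 in these, up to 0.224 elsewhere). These 8 differences all come from the same 2 arrays, which also enter every response above.

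**Figure D3:**
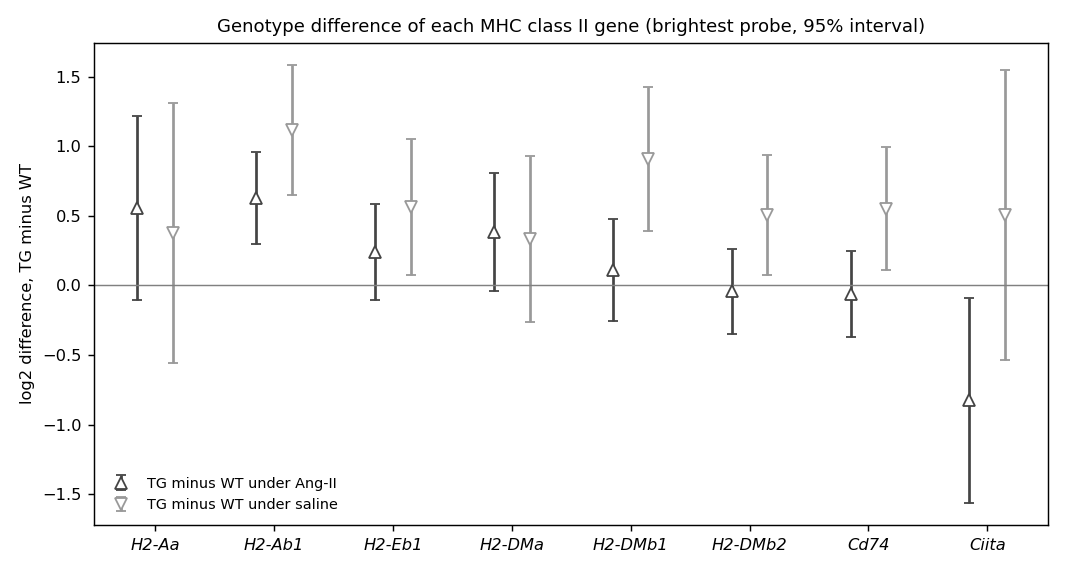
TG minus WT difference in log2 signal (y axis) of each class II gene by its brightest probe, under Ang-II (upward triangles) and under saline (downward triangles), with 95% intervals from the limma fit. All 8 saline differences lie above 0, with Ciita at background on both saline arrays. Under Ang-II the differences run from -0.83 for Ciita to 0.63 for H2-Ab1. None passed at an adjusted p under 0.05.

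By group mean, 5 genes (H2-Aa, H2-Ab1, H2-Eb1, H2-DMa and H2-DMb1) ran in the order TG Ang-II, WT Ang-II, TG saline, WT saline from high to low. H2-DMb2, Cd74 and Ciita had WT Ang-II first. In this order TG Ang-II and WT Ang-II did not differ beyond their test for any of the 8, nor did TG saline and WT saline. Members followed their mean profile to different degrees: the root mean square difference over the 6 arrays was 0.118 for Cd74 and 0.156 for H2-Eb1, against 0.369 for H2-Ab1 and 0.492 for Ciita. Of 9625 other genes compared over the 6 arrays, those nearest to the members' mean profile were Siglech (0.0844), C1qtnf9 (0.085), Mmp2 (0.0893), Robo4 (0.0908) and Ebf3 (0.102).

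Ciita is recruited to promoters by RFX, CREB and NF-Y. Rfx5, the large subunit of RFX, and Nfya, a subunit of the Y box factor NF-Y, were not detected on any array. Of 5 measured factors, 1 rose in TG, 0 in WT and 1 in the average. Creb1, which binds cyclic AMP response elements, read 7.45 and 7.02 in TG Ang-II, 6.30 and 6.63 in WT Ang-II, 5.04 in TG saline and 5.51 in WT saline. These values are from the brightest of its 2 kept probes, which was at background on both saline arrays, and the other probe is not given. By this probe Creb1 was higher under Ang-II by at least 2.96-fold in TG (adjusted p = 0.00976). In WT it did not pass (at least 1.78-fold, adjusted p = 0.0706). Rfxank, another RFX subunit, read 5.03 and 5.10 in TG Ang-II, which was not well above background, against 5.94 and 5.70 in WT Ang-II, at least 1.10-fold lower in TG (adjusted p = 0.0441). Rfxap, Nfyb and Nfyc did not pass in any comparison.

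Upstream of Ciita, 1 of 6 measured genes of the interferon gamma route rose in each genotype. This was Ifngr2, a chain of the interferon gamma receptor, which rose by 0.96 ± 0.18 in TG (1.95-fold, adjusted p = 0.0387) and by 1.02 ± 0.18 in WT (2.03-fold, adjusted p = 0.0306). Ifng itself was not detected on any array (lowest detection p 0.254).

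Of 10 genes of class II peptide processing and turnover, 1 rose in TG, 3 in WT and 4 in the average, and 0 fell. Unc93b1, a chaperone of endosomal receptors, rose by 0.73 ± 0.15 in TG (1.66-fold, adjusted p = 0.0464) and by 1.05 ± 0.15 in WT (2.07-fold, adjusted p = 0.0160). Ifi30, a thiol reductase of the class II compartment, read 8.99 and 9.12 in TG Ang-II, 9.02 and 9.03 in WT Ang-II, 8.82 in TG saline and 8.10 in WT saline. As for H2-DMb1, its Ang-II arrays were level while its saline arrays were apart. Ifi30 rose by 0.92 ± 0.15 in WT (1.90-fold, adjusted p = 0.0248), with 0.24 ± 0.15 in TG (adjusted p = 0.394). Marchf1, the ubiquitin ligase that marks surface class II for breakdown, did not pass in TG (at least 1.25-fold by group means, adjusted p = 0.0697). In WT Marchf1 was higher under Ang-II by at least 1.22-fold by group means (adjusted p = 0.0485). Ctss, the protease that trims the invariant chain, rose by 1.02 ± 0.22 in the average (adjusted p = 0.0281) and did not pass within a genotype.

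Of 9 genes for ligands of class II and for costimulation, 4 were measured, and Cd4, Cd80, Icos and Cd28 were not detected on any array. Cd86, which gives the costimulatory signal to T cells, differed by 0.64 ± 0.21 in TG (adjusted p = 0.132) and rose by 1.02 ± 0.21 in WT (2.03-fold, adjusted p = 0.0413). Cd274, the inhibitory ligand PD-L1, read 7.63 and 7.50 in TG Ang-II, 8.51 and 8.39 in WT Ang-II, 8.13 in TG saline and 7.56 in WT saline. Its difference under Ang-II was -0.57 ± 0.16 in TG, which did not pass (adjusted p = 0.0991), and Cd274 rose by 0.89 ± 0.16 in WT (adjusted p = 0.0309). The difference between these responses did not pass (-1.46 ± 0.23, adjusted p = 0.0578). Under Ang-II the TG minus WT difference was -0.89 ± 0.13 (adjusted p = 0.0209). Cd40 and Lag3 did not pass in any comparison.

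MHC class I presentation, which shows peptides of cytosolic proteins to CD8 T cells, was measured with all 17 listed genes. In TG 0 rose and 1 fell, in WT 1 rose and 1 fell, and the medians were -0.18 in TG and 0.15 in WT. Tapbp, which loads class I molecules, fell by 0.93 ± 0.16 in TG (adjusted p = 0.0317) and fell by 0.78 ± 0.16 in WT (adjusted p = 0.0436). Both values are from the brightest of its 2 kept probes, and the other probe is not given. Psmb9, an immunoproteasome subunit, differed by -0.27 ± 0.16 in TG (adjusted p = 0.368) and rose by 0.77 ± 0.16 in WT (1.70-fold, adjusted p = 0.0453). Class I genes lie among the class II genes on mouse chromosome 17. Along that stretch, from H2-Oa to H2-Ea in RefSeq order, 4 of the 6 class II members kept rose in TG and 5 of 6 in WT, and of the 5 other genes kept (Brd2, Psmb9, Tap1, Psmb8 and Tap2) 0 rose in TG and 1 in WT. In the average 6 of 6 members and 1 of 5 others (Tap2, 0.67 ± 0.13, adjusted p = 0.0197) rose. H2-Oa, H2-Ob and H2-Eb2, the other class II genes there, were not detected on any array.

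**Figure D4:**
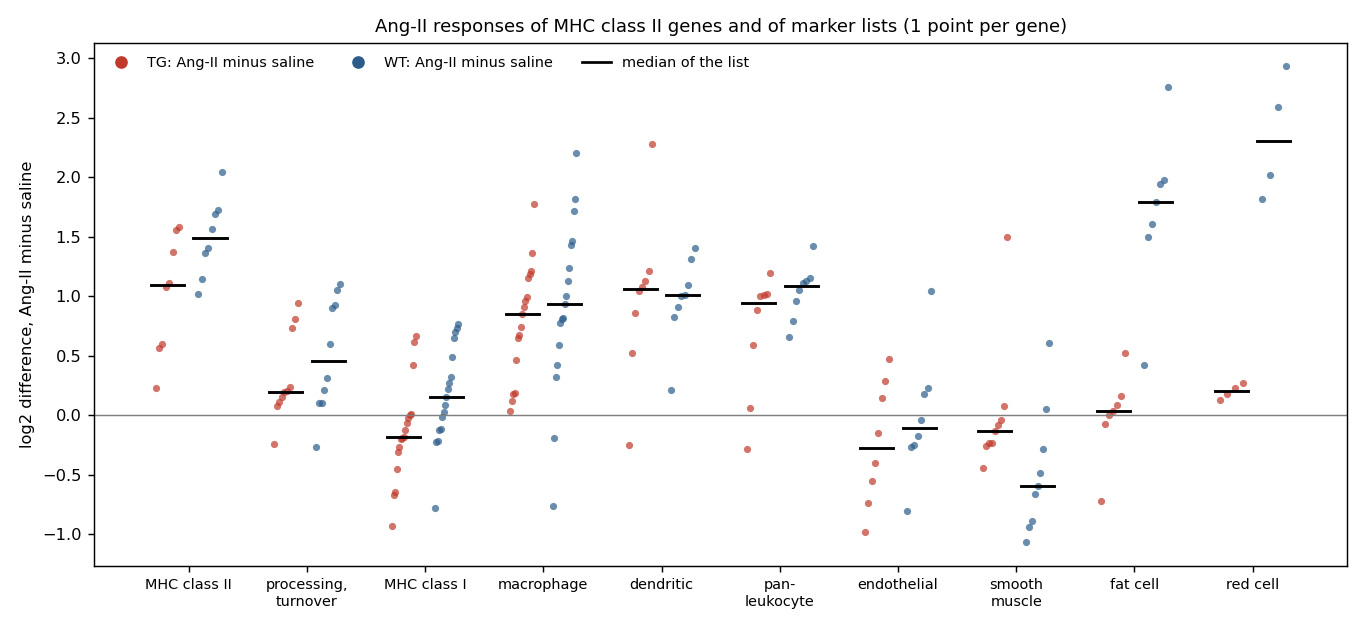
Ang-II minus saline difference in log2 signal (y axis) of each measured gene of 10 lists (x axis), TG (red) left of WT (blue), with black bars at list medians. The class II medians are 1.09 in TG and 1.49 in WT, and the class I medians -0.18 in TG and 0.15 in WT. Fat cell and red cell markers have medians of 0.03 and 0.20 in TG, against 1.79 and 2.31 in WT.

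Markers of cells that carry class II were read on the same arrays. Of 17 measured macrophage markers, 8 rose in TG and 10 in WT, with medians of 0.85 in TG and 0.94 in WT. In WT 2 of the 17 were lower under Ang-II, Lyve1 (-0.76) and Mertk (-0.19), and neither passed. Itgam and Ccr2, also on this list, were not detected on any array. Mpeg1, a pore-forming protein of macrophages, rose by 1.77 ± 0.15 in TG (3.42-fold, adjusted p = 0.00603) and by 1.71 ± 0.15 in WT (3.28-fold, adjusted p = 0.00503). Cx3cr1, a chemokine receptor of monocytes and macrophages, did not pass in TG (at least 2.19-fold, adjusted p = 0.0953) and was higher under Ang-II by at least 3.74-fold in WT (adjusted p = 0.0159). Of 8 measured dendritic cell markers, 6 rose in TG and 6 in WT, with medians of 1.06 in TG and 1.01 in WT. These counts and medians include Cd209a and Irf4, which were at background on both saline arrays. By group means Cd209a was higher under Ang-II by at least 1.05-fold in TG and 1.01-fold in WT. For Irf4 the bounds were 2.94-fold in TG and 1.17-fold in WT, where it did not pass (adjusted p = 0.168). Fscn1, the actin bundler of mature dendritic cells, was higher under Ang-II by at least 2.04-fold in TG (adjusted p = 0.0172) and rose 2.49-fold in WT (adjusted p = 0.0124). Flt3, Itgax, Xcr1, Clec9a, Batf3 and Ccr7, which also mark dendritic cells, were not detected on any array. Of 10 B cell markers 0 were kept, and the 7 with a named probe were at background on all arrays, the brightest at log2 5.63. Beside these counts, 5 of 8 class II genes rose in TG and 6 of 8 in WT, and the part of these cells in the class II values was not tested.

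The class II genes and the macrophage markers were set side by side between genotypes, with no test of one list against the other. Under Ang-II 1 macrophage marker was higher and 4 were lower in TG than in WT (Ms4a7, -0.92, adjusted p = 0.0182; median of the 17, -0.37), while 0 class II genes passed and their median was 0.18. Under saline the macrophage median was -0.21, TG minus WT, with 0 passing, against 0.53 for class II. With each gene centred on its mean over the 6 arrays, the class II median minus the macrophage median was 0.42 and 0.36 in TG Ang-II, -0.25 and -0.14 in WT Ang-II, 0.12 in TG saline and -0.72 in WT saline. The TG arrays lay above the WT arrays in this difference under either infusion. Against the dendritic cell median the same differences were 0.25 and 0.27 in TG Ang-II, -0.03 and -0.09 in WT Ang-II, 0.18 in TG saline and -0.55 in WT saline. These medians describe 6 arrays and were not tested.

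**Figure D5:**
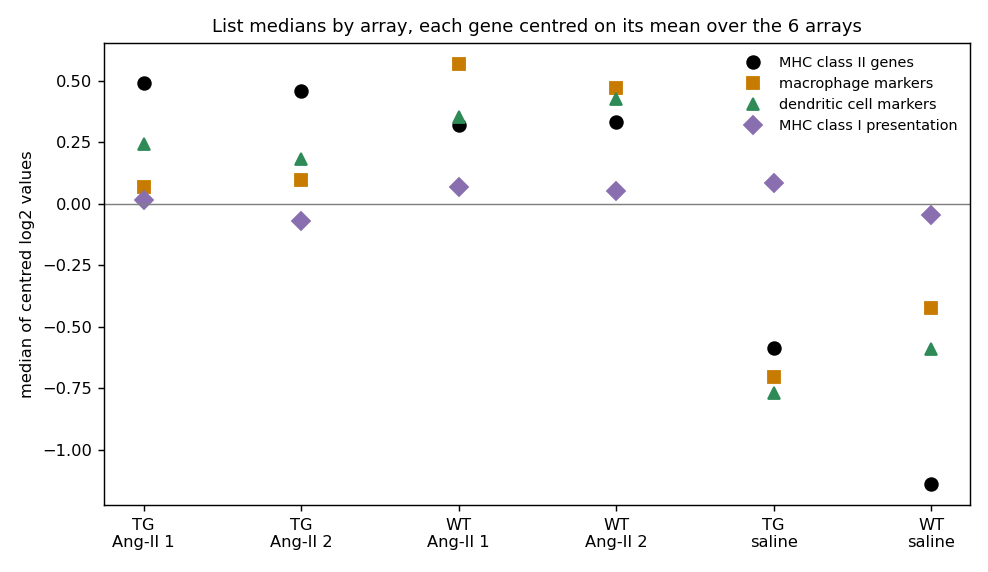
Median over each list of log2 values centred per gene on the mean of the 6 arrays (y axis), by array (x axis), for class II genes, macrophage markers, dendritic cell markers and class I presentation genes. The class II median lies above the macrophage median on the TG arrays (0.42 and 0.36 under Ang-II, 0.12 under saline) and below it on the WT arrays (-0.25 and -0.14 under Ang-II, -0.72 under saline).

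Other tissue markers moved with the groups beside class II. The summed normalized signal of the 8 class II genes was 14317 and 15721 in TG Ang-II, 12102.5 and 12384 in WT Ang-II, 5973 in TG saline and 3807 in WT saline. The 7 measured fat cell markers summed to 10677 and 9846 in TG Ang-II, 16665 and 17359.8 in WT Ang-II, 8952 in TG saline and 4495 in WT saline. The 4 measured red cell markers summed to 30413.5 and 32584 in TG Ang-II, 59698 and 57438 in WT Ang-II, 28336.5 in TG saline and 15424 in WT saline. Like class II, both lists were lowest in the WT saline array, and unlike class II they were higher in WT than in TG under Ang-II. The 8 measured endothelial markers summed to 12733 in TG saline and 8095 in WT saline, and the 17 macrophage markers to 8262.5 in TG saline and 10307 in WT saline. The part of fat, blood, heart and endothelial RNA in the class II values was not tested.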

How the data were processed

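Thoracic aorta RNA was measured on 6 Illumina bead arrays. Per the file headers, the deposited intensity columns hold the mean signal of a probe's beads on a linear scale, with the number of beads, their standard error and a detection p-value. A member probe had 27 to 63 beads per array, with a standard error of 3.14% to 8.35% of its signal. The deposited table of log2 values equals, within 1e-08 for all 271686 values, those computed here. Per the submitters' processing notes, GenomeStudio 2011.1 and limma 3.22.1 were used, with no role given.

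Background correction, quantile normalization and the log2 step were done with the neqc function of limma (version 3.58.1, under R 4.3.3), which read the deposited detection p-values and added an offset of 16. A probe was kept if 2 or more of the 6 arrays had a detection p below 0.01. Symbols came from the platform annotation, updated by gene identifier to RefSeq (GRCm38.p6; 34807 probes found). The array had 34885 probes with 1 symbol, 18 with several and 10378 unnamed here. A gene was represented by its brightest kept probe. Outside the 8 members, other kept probes of a gene are not given and may differ, as for Tapbp, Ifngr2, Ifi30, Cd86, Lum, Actc1, Mb and Hbb-bt. A model of 4 group means was fitted to all 6 arrays (2 residual and 3.75 prior degrees of freedom, prior SD 0.15), and the threshold was an adjusted p (Benjamini-Hochberg) of 0.05. The step was tested on simulated data. A gene not detected on any array of the dimmer group got a lower bound of its fold, from the brighter group's mean and, per dim array, whichever was higher of the probe itself and that array's floor of detected probes (5.54 to 5.69), as means of normalized log2 values.

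Named were all members, up to 4 genes that passed per pathway list (2 if none did, all of a list of at most 5), up to 3 per marker list by size in the average comparison, and the 5 genes nearest in profile. Members and lists were chosen with earlier results of these data known. Alternatives were other background, offset, scaling, detection filter, probe summary, array weights, prior, model and source of values, each Ang-II array left out, and the replicate number as a block. Same-numbered Ang-II arrays deviated together only weakly, so the numbers were not taken to pair. Across the kept probes, r was 0.115 between the WT and the TG difference of replicate 1 minus replicate 2. Slide and scan date are not given in the sources used here. Figures were drawn with matplotlib 3.10.9.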

Additional observations from a re-analysis of the deposited data

Results flagged for a closer look

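Only the members and the genes named by the rule above were screened for opposite moves. Of the pathway lists, Cd274 of costimulation, Psmb9 of class I presentation and Nfyc, a subunit of NF-Y, were flagged. In these 3, both Ang-II arrays moved one way from saline in TG and the other way in WT. The difference between genotypes did not pass when tested. Unnamed list genes were not screened, and some moved likewise, such as Irf1 of the interferon gamma route (interaction -1.15 ± 0.26, limma adjusted p = 0.127). The TG response minus the WT response was -1.46 ± 0.23 for Cd274 (adjusted p = 0.0578), -1.03 ± 0.23 for Psmb9 (adjusted p = 0.129) and -0.18 ± 0.24 for Nfyc (adjusted p = 0.822). The T cell marker Cd3d did the same, at 1.52 ± 0.23 (adjusted p = 0.0520), but it was not well above background in WT Ang-II, so that this size rests on values at background.

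For marker genes of tissues around or within the aorta, the responses of the genotypes differed by the limma interaction test. The TG response minus the WT response was -2.60 for Ucp1 and -1.94 for Car3, both fat cell markers (adjusted p = 0.0126 and 0.0315). It was -2.66 for Slc4a1, -2.36 for Alas2 and -1.85 for Hbb-bt, all red cell markers (adjusted p = 0.0149, 0.0180 and 0.0301), and Slc4a1 was not well above background in TG Ang-II or in either saline group. It was 4.52 for Actc1, 1.99 for Myl7 and 6.41 for Mb, all heart muscle markers (adjusted p = 0.00154, 0.0224 and 0.000974). None of the 8 class II genes met either criterion.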

How the results depend on the processing

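In the average of both genotypes the 7 class II genes that rose passed in each of 14 alternatives. The deposited values gave the same calls as the computed ones. The WT median fell to 1.16 without background correction. The TG count was 3 with no detection filter (H2-Aa and H2-DMa did not pass). Which genes passed also changed when 1 Ang-II array was left out in turn. The count for TG against WT under Ang-II was 1 without background correction, with an offset of 50, with detection on all 6 arrays and under a trended robust prior (H2-Ab1 each time), and under saline it was 2, 1, 1 and 3 in the same order of settings. The interaction count was 1 under a trended robust prior. The share of all genes that passed was not counted for any alternative, so these counts are no result about the members. H2-Aa in WT passed in 8 of 13 alternatives (adjusted p 0.000644 to 0.146) and Ciita in 7 of 12 (0.00799 to 0.168). Signs turned for the H2-DMa interaction (-0.28 with probes averaged, -0.61 by its other probe, -0.10 without TG Ang-II replicate 1, -0.08 without WT Ang-II replicate 2), for the H2-Aa interaction (-0.05 without TG Ang-II replicate 2, -0.15 without WT Ang-II replicate 1), for Ciita in TG (-0.23 without TG Ang-II replicate 1, from arrays at background) and for H2-DMb1, TG against WT under Ang-II (-0.000705 without WT Ang-II replicate 1). With a replicate block on the 4 Ang-II arrays 0 genes passed and the median was 0.18, as without it. The cause of these shifts was not tested, except that fewer arrays were fitted where one was left out. Leaving out 1 Ang-II array in turn, the highest values were 0.20 for the H2-DMa interaction, 0.51 for the H2-Aa interaction, 0.69 for Ciita in TG and 0.22 for H2-DMb1. Where 1 array was left in a group it was assumed to vary like the others. Signal near background limits the Ciita values.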

Other observations

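Of 7 measured adventitial fibroblast markers, 2 rose in TG and 3 in WT and the others did not pass, with medians of 0.60 in TG and 0.62 in WT. Lum, a collagen-binding proteoglycan, rose by 1.04 ± 0.16 in TG (adjusted p = 0.0214) and by 1.13 ± 0.16 in WT (adjusted p = 0.0148). Of 8 measured pan-leukocyte markers 4 rose in TG and 7 in WT, with medians of 0.94 in TG and 1.08 in WT, while Ptprc, the common leukocyte antigen, was not detected on any array. Of 4 measured T cell markers 1 rose in TG, and in WT 1 rose and 1 fell. The one that rose was Thy1 in both genotypes (1.86-fold in TG, adjusted p = 0.0278, and 1.69-fold in WT, adjusted p = 0.0387). Cd3d fell in WT, to a level not well above background, and did not pass in TG. Cd3e did not rise, at -0.12 ± 0.17 in TG (adjusted p = 0.722) and -0.66 ± 0.17 in WT (adjusted p = 0.0688). Cd247, Cd5, Cd8a and Cd2, also on this list, were not detected on any array. Of 3 measured lymph node and lymphatic markers 2 rose in TG and 1 in WT. Ccl21a, the chemokine that draws dendritic cells and T cells to lymph nodes, read 10.10 and 9.90 in TG Ang-II, 8.51 and 8.54 in WT Ang-II, 8.48 in TG saline and 8.41 in WT saline. It rose by 1.52 ± 0.17 in TG (adjusted p = 0.00936), with 0.12 ± 0.17 in WT (adjusted p = 0.678), and the difference of the responses, 1.40 ± 0.23, did not pass (adjusted p = 0.0666).

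Of 8 measured endothelial markers 0 rose and 2 fell in TG, and 1 rose and 0 fell in WT. Of 9 smooth muscle markers 1 rose and 0 fell in TG, and 0 rose and 3 fell in WT. Of 7 heart muscle markers 5 rose in TG and 5 fell in WT. Of 7 fat cell markers 0 rose and 1 fell in TG, and 6 rose in WT. Of 4 red cell markers 0 rose in TG and 4 rose in WT.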
